A study of Mus musculus with 6 samples.

Results

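Marker genes of oligodendrocytes, astrocytes and neurons were examined in memory-phenotype CD4+ T cells of mice in the acute phase of experimental autoimmune encephalomyelitis (EAE, a model of multiple sclerosis), to ask array by array whether the spinal cord samples carried transcripts of neural cells above the lymph node samples. The list held 31 genes (11 of oligodendrocytes, 9 of astrocytes and 11 of neurons). All probe sets whose platform annotation names exactly 1 gene, that gene being on the list, were taken. They were 82 of the 34945 probe sets that name 1 gene, and they covered 30 of the 31 genes, among 18193 genes in all. The lysophospholipase D gene Enpp2 was not analysed here. One group of 3 arrays held T cells of the spinal cord, which is inflamed in EAE, and the other group of 3 held T cells of the draining inguinal lymph nodes; they are called cord arrays and node arrays here. All mice were female C57BL/6 animals aged 8 to 10 weeks in which EAE was induced with the MOG35-55 peptide, a fragment of the myelin protein encoded by the member gene Mog. Unimmunised mice and whole spinal cord RNA were not analysed here, and the number of animals per array is not stated in the labels.

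Oligodendrocytes wrap axons of the central nervous system in myelin, a stack of membranes held together by myelin basic protein and rich in galactolipids. Astrocytes take up glutamate, couple through gap junctions and contact blood vessels with water channel-bearing endfeet, and neurons carry synaptic vesicle, neurofilament and growth-associated proteins. T cells isolated from inflamed spinal cord pass through dissociated tissue, in which myelin is abundant. Several of the genes are also known outside the nervous system: Mbp has a longer transcription unit, Golli, that is used in T cells, and Cnp, Mal, Clu and Sparcl1 are known from other cell types.

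After RMA, which brings the arrays to 1 distribution, the 6 arrays had median intensities of 68 to 71. Such medians cannot show whether an array stood apart in raw brightness. The 3 genes of the T cell identity list with the highest mean level, Cd44, Cd2 and Cd3g, were high on all 6 arrays. In the same list Cd4 read 2063 to 7669 and Cd8a 121 to 225. The T cell receptor subunit gene Cd3g read 6084, 6451 and 9316 on cord arrays 1, 2 and 3 against 6359, 5722 and 9945 on node arrays 1, 2 and 3. The memory marker gene Cd44 read at least 6312 on every array, and the adhesion receptor gene Cd2 at least 4275. Intensities are on a linear scale after RMA normalization, and changes are spinal cord minus lymph node on the log2 scale with the standard error (SE). In bulk RNA, fewer cells of a type and less RNA per cell cannot be told apart.

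No member gene was called different between the tissues, and the larger differences lay in some probe sets of 2 myelin genes, Mbp and Mobp, on 2 of the 3 cord arrays. By limma with Benjamini-Hochberg adjustment over all genes, 0 of 30 member genes were called (lowest adjusted p = 0.236, Cnp), against 2.54% of all genes (1.13% higher and 1.41% lower). At an unadjusted p under 0.05, 2 member genes passed (Stmn3 higher and Cnp lower), against 14.3% of all genes (5.39% higher and 8.89% lower). In the fit over probe sets, 0 of 82 member probe sets were called, against 1.49% of all probe sets (0.701% higher and 0.784% lower). At an unadjusted p under 0.05, 7 passed (5 higher and 2 lower), against 12.8% of all probe sets (5.31% higher and 7.45% lower). Changes were positive in 23 of 30 genes, against 50.7% of all genes, and in 60 of 82 probe sets, against 52.1% of all probe sets. The median log2 change was 0.17 for oligodendrocyte, 0.11 for astrocyte and 0.03 for neuron probe sets, 0.10 for all 82, and 0.01 for all probe sets. With the replicate number as a block, 1 member gene (Cnp) was lower and 0 were higher, against 11.1% of all genes (3.67% higher and 7.45% lower). In the blocked fit over probe sets, 2 member probe sets, both of Cnp, were lower and 0 higher, against 7.65% of all probe sets (2.94% higher and 4.71% lower).

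Mobp encodes myelin-associated oligodendrocyte basic protein, which helps to compact central myelin. Its probe set 1433785_at read 192, 244 and 32 on cord arrays 1, 2 and 3 against 23, 22 and 24 on node arrays 1, 2 and 3, the order in which all values are given. Arrays 1 and 2 stood well above the node arrays and array 3 just above them, so the groups did not overlap. The node values lie below 27, the 20th percentile of all intensities of probe sets that name 1 gene, and no detection calls were used, so folds and ratios here are against values not shown to be above background. The ratio to the node array of the same number was 8.35, 11.1 and 1.33. The log2 change was 2.32 ± 0.76 SE (4.98-fold, 95% interval 1.38-fold to 18.0-fold), from log2 means of 6.84 ± 1.60 and 4.52 ± 0.06 (SD, n = 3 each), with a limma adjusted p of 0.27. An exact permutation test, two-sided, returned p = 0.1, below which a design of 3 against 3 cannot go. Without cord array 3 the change was 3.24 ± 0.15 SE and passed the threshold (limma adjusted p = 0.0189), the only call of a member probe set in the 6 fits that left out 1 array; with the block and without both arrays of number 3 its adjusted p was 0.189. Without cord array 1 the change was 1.94 (adjusted p = 0.474) and without cord array 2 it was 1.77 (0.545). The other 4 probe sets of Mobp had log2 changes from 0.13 to 0.26. The one with the highest mean log2 intensity, 1436263_at, read 93, 102 and 96 in cord against 99, 76 and 71 in node, and these ranges overlapped.

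Mbp encodes myelin basic protein, the main cytoplasmic protein that compacts myelin, and its 8 probe sets split into 2 kinds. In the first kind were 5 probe sets at least 2-fold above all node arrays on cord array 1, with higher values in cord arrays 1 and 2. Probe set 1433532_a_at read 761, 505 and 126 in cord against 157, 105 and 101 in node, a log2 change of 1.62 ± 0.67 SE (limma adjusted p = 0.395). Probe set 1456228_x_at read 588, 318 and 116 against 77, 91 and 122, a change of 1.56 ± 0.58 SE. In both, arrays 1 and 2 lay above every node array and array 3 lay within the lymph node range. Probe set 1436201_x_at read 523, 312 and 152 against 116, 101 and 134 (1.33 ± 0.44 SE). Probe set 1454651_x_at read 123, 74 and 38 against 29, 32 and 34 (1.15 ± 0.41 SE). These 2 did not overlap between tissues, since array 3 was also above the node arrays, by 1.13-fold and 1.12-fold over the highest of them. The fifth, 1419646_a_at, read 311, 225 and 88 against 121, 64 and 76 (1.13 ± 0.51 SE), with array 3 within the lymph node range.

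The 5 probe sets report on 1 gene and may share probes or transcript sequence, so they are not 5 separate observations. None of them was called in the 6-array limma fit (adjusted p from 0.277 to 0.44) or with the replicate block (0.0882 to 0.176). Without cord array 3 their log2 changes were 1.59 to 2.39, with limma adjusted p from 0.057 to 0.167. Without cord array 1 they were 0.75 to 1.09, with adjusted p from 0.396 to 0.66, and without cord array 2 they were 0.98 to 1.46, with adjusted p from 0.54 to 0.69.

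In the second kind were 3 Mbp probe sets that stayed under this 2-fold difference on cord array 1, with log2 changes from -0.06 to 0.39. The tissue groups of all 3 overlapped. The brightest, 1425264_s_at, read 5981, 4784 and 3397 in cord against 6110, 4777 and 3798 in node. The tissue groups lay over each other, with array 1 highest in both, and its log2 change was -0.06 ± 0.27 SE (limma adjusted p = 0.956), with a 95% interval from 0.608-fold to 1.51-fold. Probe set 1425263_a_at read 1077, 1305 and 965 against 657, 1388 and 661, a change of 0.39 ± 0.32 SE. Probe set 1451961_a_at read 138, 141 and 131 against 133, 113 and 113, a change of 0.20 ± 0.12 SE. Here too cord arrays 1 and 2 lay above every node array, by 1.04-fold and 1.06-fold over the highest, and array 3 within the lymph node range. Which Mbp transcripts each probe set detects was not analysed here.

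**Figure D1:**
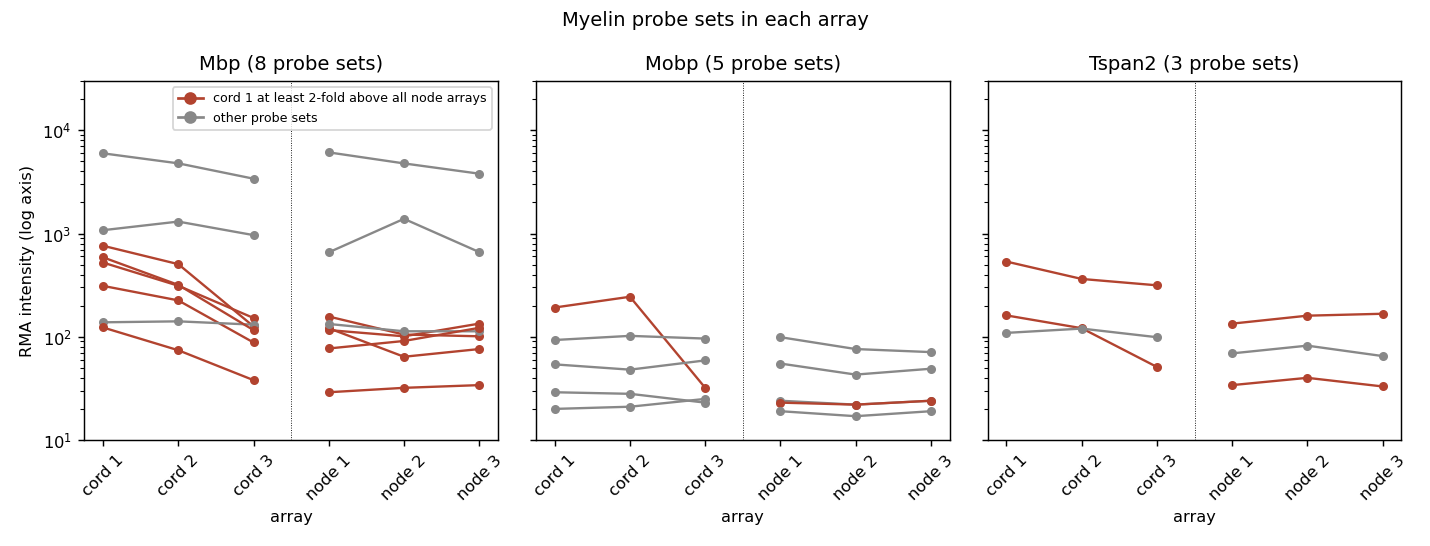
RMA intensity (log axis) of every probe set of Mbp (8), Mobp (5) and Tspan2 (3) on each of the 6 arrays, where a line joins the values of 1 probe set within a tissue. Probe sets at least 2-fold above all node arrays on cord array 1 are in red: on array 3 the 5 red Mbp probe sets and the red Mobp probe set lie near the node arrays, and the grey Mbp probe set at the top spans 3397 to 6110 over both tissues.

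Cnp, which encodes a nucleotide phosphodiesterase of non-compact myelin and is also known from other cells, had negative changes in all 3 probe sets. Its brightest probe set, 1437341_x_at, read 6644, 4232 and 4059 in cord against 9444, 8977 and 6453 in node. Cord array 1 lay just above the lowest node array, so the groups overlapped. The log2 change was -0.75 ± 0.25 SE (limma adjusted p = 0.236, and 0.0324 with the replicate number as a block). Probe set 1418980_a_at read 648, 713 and 589 against 1270, 1404 and 795, without overlap. Its log2 change was -0.79 ± 0.24 SE (limma adjusted p = 0.225, and 0.0443 with the block). With the block and without both arrays of number 3, neither passed (limma adjusted p = 0.295 for the gene, and 0.365 and 0.222 for 1437341_x_at and 1418980_a_at in the fit over probe sets). The third, 1449296_a_at, had a change of -0.42 ± 0.33 SE and overlapped.

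The other oligodendrocyte genes had log2 changes from -0.06 to 0.19 on all their probe sets, and none was called. Mog, which encodes the surface glycoprotein of myelin from which the immunising peptide derives, read 14, 16 and 16 in cord against 14, 13 and 16 in node. These values lie near the low end of the arrays, and the groups overlapped (log2 change 0.10 ± 0.13 SE, 95% interval 0.86-fold to 1.33-fold). Mag, a receptor at the inner face of myelin, read 67, 65 and 72 against 63, 52 and 64, without overlap and with a change of 0.19 ± 0.13 SE. Cldn11, the tight junction protein of myelin, read 15, 15 and 16 against 15, 14 and 16. Ugt8a and Fa2h, enzymes of galactolipid synthesis, had changes of 0.03 ± 0.16 SE and 0.19 ± 0.14 SE for their brightest probe sets. Opalin, a membrane protein of mature oligodendrocytes, had a change of -0.03 ± 0.17 SE. Mal, a raft protein of myelin that T cells also use, read 172, 153 and 120 against 167, 137 and 123 on its brightest probe set (0.06 ± 0.19 SE). Its second, 1417275_at, read 294, 103 and 53 against 251, 95 and 76 (-0.06 ± 0.73 SE), with array 1 highest in both tissues. Without Mbp and Mobp, the 13 remaining oligodendrocyte probe sets had a median log2 change of 0.03.

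None of the 32 astrocyte probe sets reached a 2-fold difference in any cord array. All 32 had log2 changes within 0.5 of 0, as had 29242 of all 34945 probe sets. Gfap, the intermediate filament gene that defines astrocytes, read 77, 87 and 80 in cord against 70, 59 and 77 in node on its brightest probe set. The groups touched at 77, and the log2 change was 0.25 ± 0.14 SE (limma adjusted p = 0.512, 95% interval -0.09 to 0.59). Its other 2 probe sets had changes of 0.19 and 0.22. Aqp4, the endfoot water channel, read 50, 49 and 47 against 47, 43 and 48 (0.08 ± 0.11 SE). The glutamate transporter genes Slc1a2 and Slc1a3 had changes of 0.21 ± 0.12 SE and 0.18 ± 0.14 SE. The 5 probe sets of Slc1a2 ranged from -0.06 to 0.21 and the 6 of Slc1a3 from -0.06 to 0.24; 1 further probe set that names Slc1a2 and a second gene was left out.

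Of the remaining astrocyte genes, Gja1, the gap junction protein connexin, stayed between 11 and 36 on all 6 of its probe sets and all arrays, with changes from 0.03 to 0.22. Aldh1l1, a folate enzyme used to mark astrocytes, read 27, 32 and 29 in cord against 42, 32 and 36 in node, lower in spinal cord except for a tie at 32 (log2 change -0.32 ± 0.14 SE, limma adjusted p = 0.406). S100b, a calcium-binding protein, had a change of 0.07 ± 0.10 SE. Sparcl1, a matricellular protein, had 0.20 ± 0.13 SE. Clu, the secreted chaperone clusterin, read 110, 124 and 139 against 121, 112 and 118, with overlap. Astrocyte probe sets had positive changes in 27 of 32 cases with a median of 0.11, and 28 of the 32 were dim (defined with the brightness classes). Of these 28, 23 had positive changes, with a median of 0.10, against 66.2% and 0.05 for all dim probe sets.

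The 24 neuron probe sets also stayed within 0.5 of 0 on the log2 scale, as did 29242 of all 34945 probe sets. Snap25, a core protein of synaptic vesicle fusion, read 14, 17 and 15 in cord against 15, 16 and 14 in node (0.03 ± 0.12 SE, 95% interval 0.826-fold to 1.26-fold). Its second probe set read 13 to 15 on every array. The vesicle calcium sensor gene Syt1 had a change of 0.13 ± 0.11 SE on its brightest probe set. The neurofilament genes Nefl and Nefm had changes of 0.23 ± 0.16 SE and -0.01 ± 0.14 SE. Tubb3, a neuronal tubulin, and Gap43, a growth cone protein, read 15 to 20 and 21 to 27.

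A few neuron genes had larger changes, but none was called. Stmn3, a microtubule regulator, read 186, 165 and 139 in cord against 122, 117 and 130 in node, without overlap (log2 change 0.40 ± 0.14 SE, limma adjusted p = 0.272). Its second probe set, 1460181_at, had the opposite sign (-0.19). Stmn2, its relative in growing axons, read 125, 103 and 113 against 143, 114 and 180 (-0.34 ± 0.19 SE), and its second probe set also had a negative change (-0.41). Syn1, a synaptic vesicle phosphoprotein, read 115, 98 and 88 against 97, 58 and 74, with overlap (0.42 ± 0.22 SE). Camk2a, a synaptic kinase, read 135, 155 and 184 against 116, 111 and 141 on its brightest probe set (0.36 ± 0.17 SE), while its 6 probe sets ranged from -0.11 to 0.36. Gad1, the enzyme of GABA synthesis, had 1 probe set at 0.06 and 1 at -0.26.

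**Figure D2:**
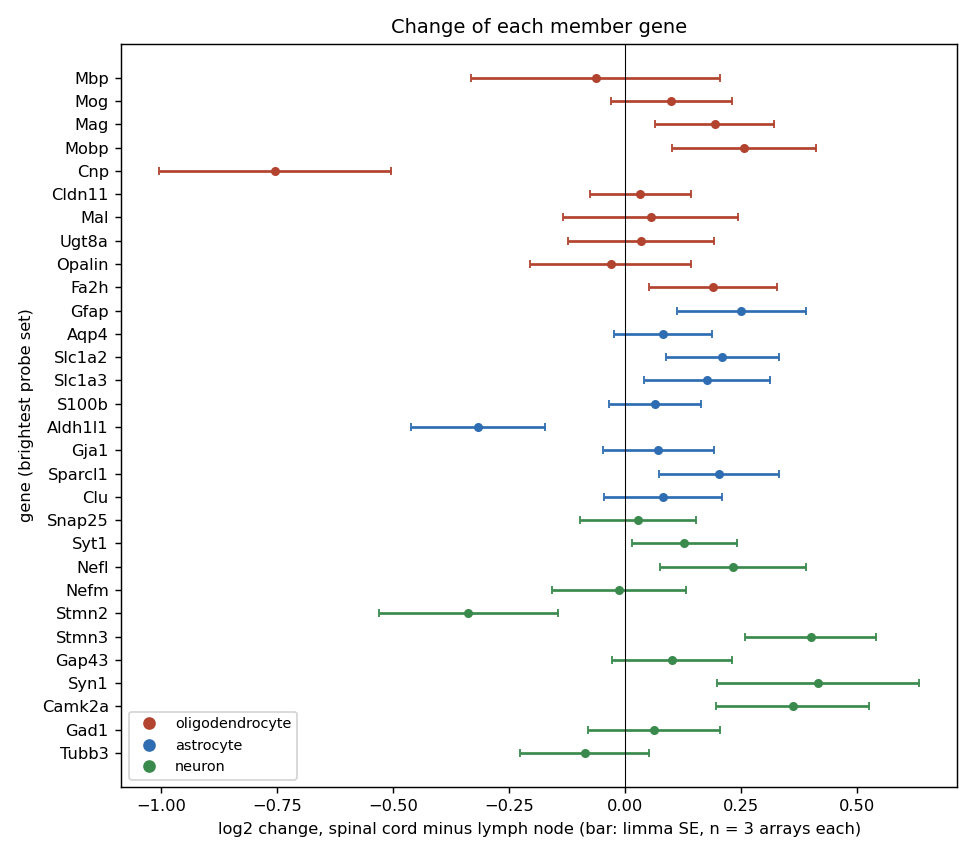
Log2 change, spinal cord minus lymph node, of the brightest probe set of each of the 30 measured member genes, grouped by marker class, with the limma standard error (n = 3 arrays per tissue). The changes run from -0.75 (Cnp) to 0.42 (Syn1), and the brightest probe sets of Mbp and Mobp, at -0.06 and 0.26, do not show the contrast seen in other probe sets of these genes.

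The rule of 1 brightest probe set per gene therefore left the Mbp and Mobp contrast out of the gene-level fit. With the mean over all probe sets of a gene in its place, Mbp had a log2 change of 0.91 (limma adjusted p = 0.304) and Mobp 0.63. With either rule 0 of 30 member genes were called. Without Mbp, Cnp, Mal, Sparcl1 and Clu, which are known from T cells or other cells, 0 of 25 genes were called and the median log2 change was 0.10, against 0.08 for all 30.

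Read array by array, only the oligodendrocyte list of the 3 had probe sets at least 2-fold above all 3 node arrays. On cord array 1 they were 6 of 26 oligodendrocyte probe sets (5 of Mbp and 1 of Mobp), 0 of 32 astrocyte and 0 of 24 neuron probe sets, against 1.56% of all probe sets. On array 2 they were 5 of 26 (4 of Mbp and 1 of Mobp), 0 and 0, against 1.72%. On array 3 there were 0 in every class, against 1.67% of all probe sets. Over all 82 member probe sets, 6, 5 and 0 passed. The highest ratio of a cord array to the highest node array among astrocyte and neuron probe sets was 1.43. In the other direction, 0 of 82 member probe sets on any cord array lay 2-fold below all node arrays. The shares of all probe sets were also small, at 1.33%, 1.15% and 1.74% on cord arrays 1, 2 and 3.

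Cord arrays 1, 2 and 3 lay above all 3 node arrays at 36, 33 and 27 of the 82 member probe sets, against 26.7%, 23.6% and 26.2% of all probe sets. In oligodendrocyte probe sets the counts were 13, 14 and 8 of 26, and in astrocyte probe sets 14, 12 and 13 of 32. In neuron probe sets they were 9, 7 and 6 of 24 (37.5%, 29.2% and 25%), near the shares of all probe sets on arrays 2 and 3. Below all node arrays lay 4, 6 and 4 of the 24 neuron probe sets on cord arrays 1, 2 and 3. The counts below were 3, 3 and 6 of 26 oligodendrocyte and 2, 2 and 3 of 32 astrocyte probe sets. The shares of all probe sets that lay below were 22.01%, 22.6% and 27.8%. All 3 cord arrays lay above all node arrays at 11 member probe sets, against 8.39% of all, and below them at 2, against 8.45%. Of the 11, 5 were of oligodendrocyte, 4 of astrocyte and 2 of neuron genes. Apart from the 2 of Mbp and Mobp 1433785_at, the log2 changes of the 11 ran from 0.13 (Nefl) to 0.40 (Stmn3). At the dim end Slc1a2 1438194_at read 21, 20 and 21 against 19, 18 and 18, in values rounded to whole numbers. By the brightest probe set of each gene, 3 of 30 genes lay above on all 3 cord arrays (Mag, Slc1a3 and Stmn3), against 8.81% of all genes, and 0 below, against 9.68%. Cord arrays 1, 2 and 3 lay above all node arrays at 9, 17 and 11 of the 30 genes, against 28.4%, 22.8% and 25.4% of all genes.

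**Figure D3:**
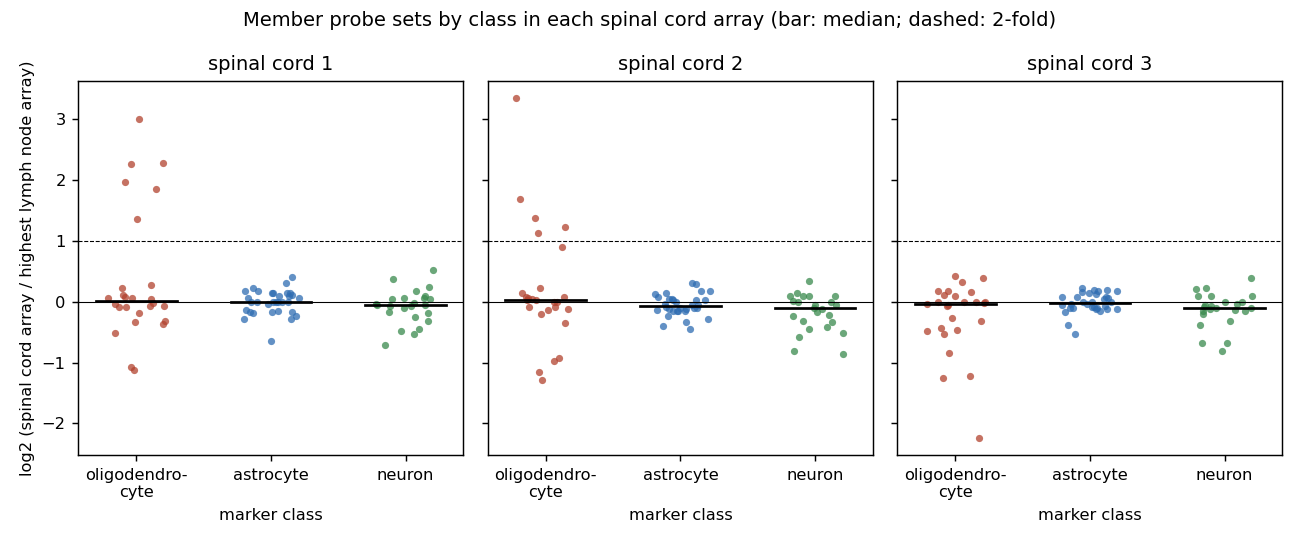
Log2 ratio of each cord array to the highest of the 3 node arrays, for the 26 oligodendrocyte, 32 astrocyte and 24 neuron probe sets, with the median as a bar and the 2-fold line dashed. On arrays 1 and 2, 6 and 5 oligodendrocyte points lie at or above the 2-fold line; no point of any class does so on array 3.

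Few probe sets of the arrays separated arrays 1 and 2 from array 3 in this way. At least 2-fold above all node arrays on cord arrays 1 and 2 but not on array 3 were 5 of 82 member probe sets (4 of Mbp and Mobp 1433785_at), against 0.24% of all probe sets. The pattern was described after these values were seen, and the Mbp probe sets share 1 gene, so no test is given.

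By brightness, most members lay where the arrays are dim. With the probe sets divided at the 40th and 80th percentile of mean log2 intensity (intensities of 57.2 and 612), 58 of the 82 member probe sets were dim, 20 intermediate and 4 bright. In 17 of the 30 genes every probe set was dim, and 21 genes stayed under an intensity of 100 on every probe set and array. The 58 dim members had a median log2 change of 0.09, against 0.05 for all dim probe sets, and 43 of them were positive, against 66.2%. The 20 intermediate members had a median of 0.19, against -0.01 for all of that brightness. The 4 bright ones, 2 each of Mbp and Cnp, had a median of -0.41, against -0.17.

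The 2-fold differences came from dim and intermediate probe sets. On array 1, 2 of 58 dim members (Mbp 1454651_x_at and Mobp 1433785_at) were at least 2-fold above all node arrays, against 0.429% of all dim probe sets. Among the intermediate members 4 of 20, all of Mbp, were so, against 2.17%. None of the 4 bright members was, against 2.60%. Of the 82 member probe sets, 74 had log2 changes within 0.5 of 0, against 29242 of all 34945 probe sets.

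**Figure D4:**
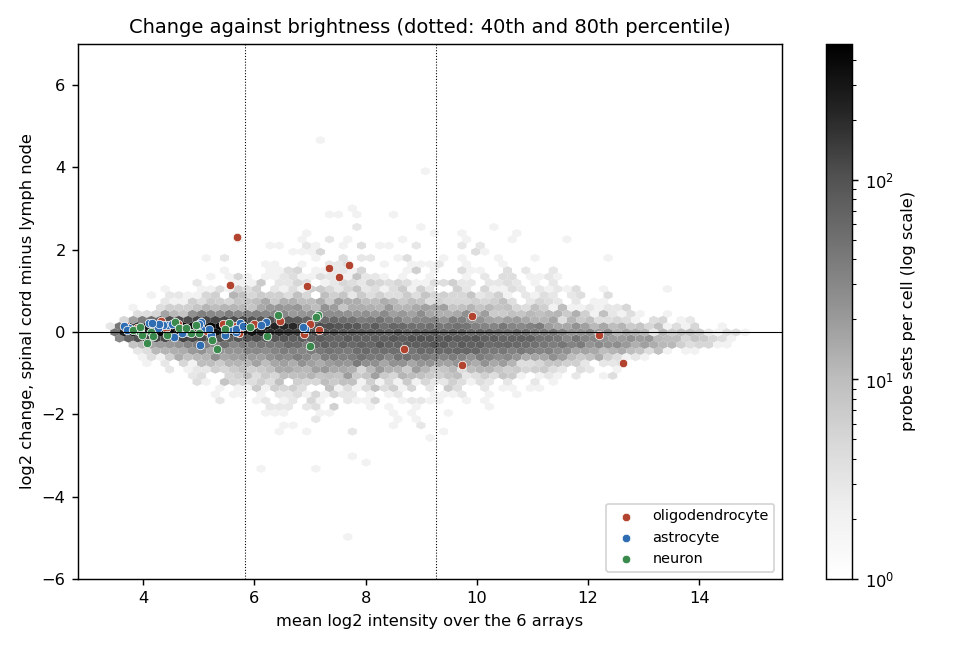
Log2 change against mean log2 intensity over the 6 arrays, with the 82 member probe sets coloured by class over all 34945 probe sets in grey (darker for more probe sets) and dotted lines at the 40th and 80th percentile. Members crowd near 0 on the dim side, with 6 oligodendrocyte points between 1.13 and 2.32 and 2 Cnp points at -0.79 and -0.75.

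Further nervous system genes that are not members gave 2 calls among 52 measured, against 2.54% of all genes (1.13% higher). Both were higher in cord, and both were in the oligodendrocyte and myelin list of 13. Ermn, which encodes the cytoskeletal myelin protein ermin, read 2216, 1696 and 1588 in cord against 221, 211 and 411 in node. All 3 cord arrays were high, unlike Mobp 1433785_at, and the groups did not overlap (6.78-fold, log2 change 2.76 ± 0.29 SE, limma adjusted p = 0.0112). Its second probe set read 544, 497 and 366 against 49, 42 and 67. The call of Ermn held in 4 of the 6 fits without 1 array and was lost without cord array 2 (adjusted p = 0.0674) or node array 2 (0.0609). Tspan2, a tetraspanin of myelin, read 535, 363 and 315 against 134, 160 and 167, without overlap. It was 2.58-fold higher (1.36 ± 0.22 SE, limma adjusted p = 0.0393), and its call held in 0 of the 6 fits without 1 array (adjusted p from 0.0559 to 0.151). Its probe set 1424567_at read 161, 121 and 51 against 34, 40 and 33, with array 3 closest to the node arrays. The oligodendrocyte lineage and myelin list had a median log2 change of 0.16.

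In the other companion lists 0 of 12 astrocyte, 0 of 25 neuron and 0 of 2 peripheral nerve genes were called, against 2.54% of all genes. Their median log2 changes were 0.09, 0.11 and 0.33. Over all companion lists, 5, 6 and 3 of 100 probe sets were at least 2-fold above all node arrays on cord arrays 1, 2 and 3. The shares of all probe sets were 1.56%, 1.72% and 1.67%. Besides Ermn and Tspan2, the astrocyte gene Cpe passed on array 1 and the neuron gene Slc17a6 on arrays 2 and 3. The vesicular glutamate transporter gene Slc17a6 read 48, 111 and 110 against 28, 28 and 20 (1.74 ± 0.36 SE, limma adjusted p = 0.0783, and 0.0272 with the block). Nrgn, the postsynaptic protein neurogranin, read 377, 330 and 302 against 148, 168 and 232 (0.90 ± 0.20 SE, adjusted p = 0.0908, and 0.045 with the block). Both were higher on all 3 cord arrays, with array 1 the lowest of them for Slc17a6, which was called without that array (adjusted p = 0.0242). Aldoc, a brain aldolase, read 380, 251 and 455 against 228, 168 and 301, with overlap (0.64 ± 0.30 SE, adjusted p = 0.42, and 0.0229 with the block). With the block, 5 companion genes were higher (Ermn, Tspan2, Slc17a6, Nrgn and Aldoc), against 3.67% of all genes. The bicarbonate transporter gene Slc4a4 and the peripheral myelin genes Pmp2 and Pmp22 had changes of 0.26 ± 0.15, 0.23 ± 0.11 and 0.43 ± 0.23 SE.

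Markers of microglia and macrophages were also measured. The 12 measured microglia and macrophage genes had a median log2 change of 1.42. By limma 0 of 12 were called, and 7 were higher with the replicate block, against 3.67% of all genes. With the block and without both arrays of number 3, 0 of the 12 passed (lowest adjusted p = 0.0965, Cx3cr1). Without cord array 1 and with no block, the receptor gene Csf1r (adjusted p = 0.0317) and the complement genes C1qa (0.0275), C1qb (0.00828) and C1qc (0.0132) were called. Cord array 1 was the lowest cord array for these 4 genes. Each was called in only 1 of the 6 fits without 1 array, with limma adjusted p up to 0.389 in the others. The share of all genes called without cord array 1 is not given here. The summed intensity of the 12 genes on cord arrays 1, 2 and 3 was 1149, 5081 and 2574, against 533 to 623 over the node arrays. Array 2 had the highest sum, and Mobp 1433785_at was also highest there, while the 5 higher Mbp probe sets were highest on array 1. Between arrays 1 and 3 the order was opposite: the sum was higher on array 3, while Mobp 1433785_at read 192 on array 1 and 32 on array 3. The macrophage lysozyme gene Lyz2 read 245, 1771 and 563 against 78, 81 and 78. The growth factor receptor gene Csf1r read 237, 1486 and 754 against 99, 57 and 98, and the chemokine receptor gene Cx3cr1 read 233, 874 and 273 against 46, 160 and 82. The part of these cells in the myelin values was not tested.

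The 7 endothelial genes had sums of 616 to 702 on cord arrays against 511 to 845 on node arrays, and the 6 genes of lymph node stroma and high endothelium had sums of 264 to 275 against 224 to 290. The vessel genes Pecam1, Egfl7 and Flt1 had log2 changes of -0.34 ± 0.53 SE, 0.02 ± 0.17 SE and 0.31 ± 0.16 SE, and the stromal genes Dcn and Pdpn -0.10 ± 0.16 SE and 0.37 ± 0.14 SE. The 3 B cell genes summed to 103 to 136 and 124 to 223, with Cd79b at 43, 29 and 39 in cord against 117, 79 and 57 in node (-1.15 ± 0.29 SE, limma adjusted p = 0.134, and 0.0267 with the block). The 7 T cell identity genes summed to 30184 to 39986 and 26626 to 43227, and 0 were called.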

How the data were processed

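The values analysed are RMA intensities, made by the authors per the submitters' processing notes, which give no version. RMA subtracts background, brings the arrays to 1 distribution and merges the probes of a set. The deposited intensity table is linear and rounded to whole numbers, so log2 was taken first. Per the labels' protocols, cRNA was amplified in 2 cycles from 1 ng of total RNA, which can shorten 5' ends and so act unequally on probe sets of 1 gene. No detection calls, probe sequences or genome build were used here. With 3 arrays a tissue, their number bounds the precision.

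Probe sets were named from the platform annotation, and all 82 member probe sets matched RefSeq (GRCm38.p6, names only). A gene was represented by its brightest probe set (mean log2 over 6 arrays). Genes (18193) and probe sets (34945) were fitted separately with limma 3.58.1 (lmFit, eBayes; R 4.3.3), on tissue alone, with two-sided tests, Benjamini-Hochberg adjustment over all features and a call at an adjusted p below 0.05. The fit was tested on simulated data with independent noise on each array, without the correlation of same-numbered arrays given below. Intervals at 95% come from the same fit. Tables used Python 3.11.15 and pandas 2.3.3.

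Arrays carry the numbers 1 to 3 in both tissues, and the labels give no meaning for them. After subtraction of tissue means, arrays of 1 number correlated across probe sets, which are not independent, at 0.59, 0.549 and 0.772. Arrays of different numbers correlated at -0.544 to -0.0459. Subtraction of tissue means makes the deviations within a tissue sum to 0. Given positive values for same-numbered arrays, negative values elsewhere follow in part from this and are no separate evidence of pairing. On these data alone, same-numbered arrays were treated as pairs in the fits with the replicate block and in ratios to the same-numbered array. The other fits, with their SEs and intervals, did not use the pairing. At least 93.5% of probe sets differed between any 2 arrays. The sources used here do not name separate animals, so the p-values cover only this between-sample spread, possibly technical.

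The members and lists were chosen with earlier results of these data known. All 31 members were to be named. So were the called genes of each companion list (up to 4, otherwise the 2 with the lowest p) and up to 3 genes of other cell type lists by level. Single probe sets were singled out after their values were seen. The alternatives were omission of each array, the replicate block, quantile normalization, removal of features below the 40th percentile, centring on the median, another variance model, a floor at the 20th percentile, a threshold of 0.01 and other choices of probe set. Added after seeing the data were the block without both arrays of number 3 and the highest linear mean.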

Additional observations from a re-analysis of the deposited data

How the results depend on the processing

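With the replicate number as a block, 1 member gene (Cnp, log2 change -0.75, adjusted p = 0.0324) and 2 member probe sets were lower and 5 companion genes higher; the block changed no other count of calls among members. With the block and without both arrays of number 3, Cnp was not called (adjusted p = 0.295). Over the fits that each left out 1 array, member probe sets called higher ranged from 0 to 1 and companion genes called higher from 0 to 2. Companion calls numbered 0 with the floor, 0 at a threshold of 0.01, 0 with the block and without both arrays of number 3, and 1 with the mean of probe sets, against 2.

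Without dim genes the gene-level median log2 change was 0.17 for astrocyte and 0.38 for neuron genes, against 0.08 and 0.10. With the mean of probe sets the medians were 0.12 and 0.032, and for intermediate genes 0.11 against 0.25. For neuron genes median centring gave 0.11, quantile normalization 0.047, the floor 0.063 and removal of _x, _s and _a probe sets 0.046. For dim genes quantile normalization gave 0.024 against 0.08. Leaving out 1 array, the medians ranged from 0.066 to 0.14 (astrocyte), 0.077 to 0.17 (neuron) and 0.16 to 0.30 (intermediate). Genes above all node arrays on cord arrays 1, 2 and 3 numbered 3, 6 and 4 without dim genes, which left 8 intermediate and 2 bright members. They numbered 5 of 30 on array 1 with quantile normalization and 20 of 30 on array 3 with median centring. Without _x, _s and _a probe sets, which leaves out genes such as Fa2h and Syn1, they numbered 11 on array 2. With 1 array left out, the count on array 1 ranged from 9 to 14 of 30. The shares of all genes under these settings are not given here, so a shift of all genes cannot be told from one of the members.

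Signs that reversed belonged to changes that were not called, and the cause was not tested. With the mean of probe sets these were Mbp 0.91, Opalin 0.032, Syt1 -0.0019, Gad1 -0.097 and Mal -0.0015. With quantile normalization they were Mbp 0.033, Ugt8a -0.026 and S100b -0.0047. Without _x, _s and _a probe sets they were Stmn3 -0.19, Slc1a3 -0.064 and Mal -0.058, and Mal was also -0.058 with the highest linear mean. Snap25 was -0.0060 with the block and without number 3. Leaving out 1 array gave ranges of -0.16 to 0.074 (Opalin), -0.050 to 0.16 (Ugt8a), -0.14 to 0.054 (Nefm), -0.14 to 0.027 (Tubb3), -0.25 to 0.16 (Mbp), -0.038 to 0.17 (Gad1), -0.016 to 0.081 (Cldn11), -0.059 to 0.20 (Mal), -0.00071 to 0.15 (Gap43), -0.048 to 0.092 (Snap25) and -0.0018 to 0.17 (Clu). Most members are dim, and without detection calls a change near the low end of the arrays has no stated limit of detection.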
